A study of Mus musculus with 5 samples.

Results

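The NK cell receptor genes described here are 10 genes of the 55487 with counts: *Klrd1*, *Klrc1*, *Klrc2*, *Klre1*, *Klrk1*, *Klrb1c*, *Klrg1*, *Klra1*, *Klra7* and *Ncr1*. They are genes for surface receptors best known from natural killer (NK) cells and were taken by name, with earlier results of these data known. RNA was measured by SMART-seq, which copies full-length cDNA from little RNA, in CD4 single positive (CD4 SP) thymocytes from *Tet2/3* DKO mice (n = 2) and wild type (WT) mice (n = 3), each mouse giving 1 library. The comparison asks how loss of TET2 and TET3, enzymes that oxidize methylated cytosine in DNA, changes the levels of these genes. All mice were of the C57BL/6J strain, with no treatment, and 21 to 30 days old. WT mice carried no mutant allele according to the labels. *Tet2/3* DKO mice had the genotype *Tet2*-/-*Tet3*flx/flxCD4cre, in which *Tet2* is missing from every cell of the animal, whereas the floxed *Tet3* is deleted by a Cre that the *Cd4* promoter drives in developing T cells. Thymocytes of both genotypes were depleted of CD24 high cells, and live CD4+ TCRβ+ CD8- cells that did not bind a CD1d tetramer, the reagent that stains invariant NKT (iNKT) cells, were sorted. The gate on CD4 and TCRβ leaves out NK cells, B cells and most myeloid cells, and that on CD8 leaves out CD8 T cells, while no NK cell receptor was stained.

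NK cell receptors decide whether an NK cell attacks a target, since inhibitory receptors read MHC class I molecules on healthy cells and activating receptors read molecules of stressed or infected cells. In the mouse most of them are C-type lectin-like proteins encoded side by side in the NK gene complex of chromosome 6, where the *Klra* genes encode the Ly49 receptors. T cells with memory or innate-like properties, NKT cells and γδ T cells can carry the same receptors, while conventional CD4 T cells carry few of them.

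Reads counted on genes ranged from 23529075 to 27267031 in the WT libraries and were 21371743 and 17607089 in *Tet2/3* DKO replicates 1 and 2. Counts of each gene are given in the order of the replicate numbers. *Tet3* fell, with 1133, 1082 and 1440 counts in WT against 419 and 235 (edgeR adjusted p = 0.00121, but 0.0154 without WT replicate 2 and 0.0144 without WT replicate 3). *Tet2* had 1355, 1286 and 1585 against 1919 and 1048 counts, which do not show whether exons are missing from the transcript. The RNA of sex-linked genes went against the sex labels in a pair of libraries. WT replicate 1 is labelled female but had 0 counts of *Xist* and 6821 of 4 Y-linked genes, and *Tet2/3* DKO replicate 1 is labelled male but had 744 of *Xist* and 7 of the Y-linked genes. The study describes all of these mice as male, against which only *Tet2/3* DKO replicate 1 stands apart. Results are therefore also given without both libraries and without *Tet2/3* DKO replicate 1 alone. *Tet2/3* DKO replicate 1 also had the largest share of reads outside annotated genes, 5.70% against 3.51% to 3.72% in the other libraries. T cell genes were abundant in every library, between 13092 and 15143 CPM summed over 9 genes. Of the genes of double-positive thymocytes, *Rag1* had 0 counts in all 5 libraries, but *Dntt* was present in each. *Dntt* had 444, 560 and 528 against 285 and 253 counts (log2 fold change -0.53, edgeR adjusted p = 0.106). Of the 9 T cell genes, *Cd5* and *Cd4*, the marker of the sort, fell in *Tet2/3* DKO cells. *Cd5* had 23142, 22329 and 24308 against 8467 and 6150 counts (log2 fold change -1.28, edgeR adjusted p = 8.57e-05). *Cd4* had 16413, 17858 and 15688 against 8169 and 7741 counts (log2 fold change -0.67, edgeR adjusted p = 0.00950), a call lost when any WT library was left out (edgeR adjusted p from 0.0203 to 0.0419). CPM are counts brought to a common library size by TMM scaling.

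Promoter sequences of 4 receptor genes are shown first, those of *Ncr1*, *Klrb1c* and *Klra7*, which rose, and of *Klra1*, which had the highest level in WT cells. They are shown because TET enzymes act on methylated cytosine, which in mammalian DNA stands mostly before guanine (CpG). Each runs 5′ to 3′ on the strand of the gene, from 250 bases before to 50 bases after the annotated start (RefSeq, GRCm38.p6). Capitals mark each CpG and each match to the RUNX motif TGTGGTT or the T-box motif GGTGTGA. The windows lie at chr7:4337465-4337764 (*Ncr1*, plus strand), chr6:128788592-128788891 (*Klrb1c*, minus strand), chr6:130233273-130233572 (*Klra7*, minus strand) and chr6:130386825-130387124 (*Klra1*, minus strand).
Ncr1: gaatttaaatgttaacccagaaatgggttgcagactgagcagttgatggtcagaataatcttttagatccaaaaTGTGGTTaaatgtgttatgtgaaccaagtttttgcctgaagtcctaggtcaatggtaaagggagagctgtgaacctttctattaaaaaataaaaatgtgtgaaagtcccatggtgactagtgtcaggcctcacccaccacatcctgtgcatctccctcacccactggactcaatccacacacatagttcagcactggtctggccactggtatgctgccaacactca
Klrb1c: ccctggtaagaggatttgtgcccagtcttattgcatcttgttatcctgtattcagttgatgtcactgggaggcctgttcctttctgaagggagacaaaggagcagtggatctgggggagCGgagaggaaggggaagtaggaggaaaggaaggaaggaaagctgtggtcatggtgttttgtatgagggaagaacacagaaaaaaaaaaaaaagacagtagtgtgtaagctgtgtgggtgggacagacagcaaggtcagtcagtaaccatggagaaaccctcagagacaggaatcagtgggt
Klra7: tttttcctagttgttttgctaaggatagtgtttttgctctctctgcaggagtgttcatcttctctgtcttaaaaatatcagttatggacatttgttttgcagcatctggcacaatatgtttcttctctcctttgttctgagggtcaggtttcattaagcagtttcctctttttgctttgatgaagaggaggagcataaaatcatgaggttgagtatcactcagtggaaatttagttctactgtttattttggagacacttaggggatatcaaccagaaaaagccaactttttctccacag
Klra1: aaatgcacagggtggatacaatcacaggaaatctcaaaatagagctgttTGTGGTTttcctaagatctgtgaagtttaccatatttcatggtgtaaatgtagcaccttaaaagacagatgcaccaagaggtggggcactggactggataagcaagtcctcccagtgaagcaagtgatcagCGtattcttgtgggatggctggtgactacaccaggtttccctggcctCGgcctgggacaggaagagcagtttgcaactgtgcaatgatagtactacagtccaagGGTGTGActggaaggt

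Few CpGs stand in these windows, with 0 in that of *Ncr1* and of *Klra7*, 1 in that of *Klrb1c* and 2 in that of *Klra1*. RefSeq gives *Klra7* another annotated start as well, whose window (chr6:130231638-130231937) held 3 CpGs. RefSeq gave 12 such windows for 8 of the 10 genes, and no entry was found for *Klrd1* and *Klrg1*. They held between 0 and 4 CpGs with a median of 1.5, whereas the median over all 32851 windows of 27025 genes was 7, and 38.0% of all windows held at most 4. The RUNX motif TGTGGTT was found, on either strand, in a window of 4 of the 8 genes (*Klra1*, *Klre1*, *Klrk1* and *Ncr1*) and in 6.09% of all genes, and the T-box motif GGTGTGA in 1 of the 8 (*Klra1*) and in 4.60% of all genes. A match describes the letters of the window and does not show that a factor binds there, and methylation of these windows was not analysed here.

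All 10 genes passed the expression filter and 0 were under 10 counts throughout. *Klrd1*, *Klrk1*, *Klrb1c*, *Klra1* and *Klra7* had 10 or more counts in every library, whereas the other 5 had at least 1 library under 10. Of the 10 genes, 4 rose in *Tet2/3* DKO cells at an adjusted p of 0.01 in edgeR's quasi-likelihood test, namely *Klrd1*, *Klrb1c*, *Klra7* and *Ncr1*, and 0 fell. Over all 13525 tested genes 2.42% rose and 1.50% fell. At an adjusted p of 0.05 the receptor genes that were higher numbered 6, with *Klrc1* and *Klra1* added, against 5.19% of all tested genes. Both *Tet2/3* DKO libraries lay above all WT libraries in 8 of the 10, against 19.6% of tested genes, and the groups overlapped in *Klrk1* and *Klrg1*. The median log2 fold change was 2.41 over the receptor genes and 0.01 over all tested genes. Without the pair of libraries that go against their sex labels, 8 of the 10 rose, all but *Klrc2* and *Klrg1*, against 9.55% of tested genes in either direction.

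The count of 4 depended on which libraries were used. Leaving out WT replicate 1, 2 or 3 left 1, 0 and 0 receptor genes past the threshold, and 1.14%, 0.822% and 0.956% of all tested genes. In the last pair of fits 7 receptor genes had an unadjusted edgeR p under 0.05. No share of all tested genes was taken at that level, so this count has no background beside it. Leaving out *Tet2/3* DKO replicate 1 gave 8 (9.13% of tested genes), and leaving out *Tet2/3* DKO replicate 2 gave the same 4 (1148 of 14357 tested genes). A fit with 1 *Tet2/3* DKO library assumes that this library varies like the WT libraries. In either direction, 3.92% of genes were called with all libraries. DESeq2 called 5 receptor genes (6.91% of its genes), edgeR's robust moderation 2 (4.28%) and a fit with the replicate number as a block 3 (2.65%).

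**Figure D1:**
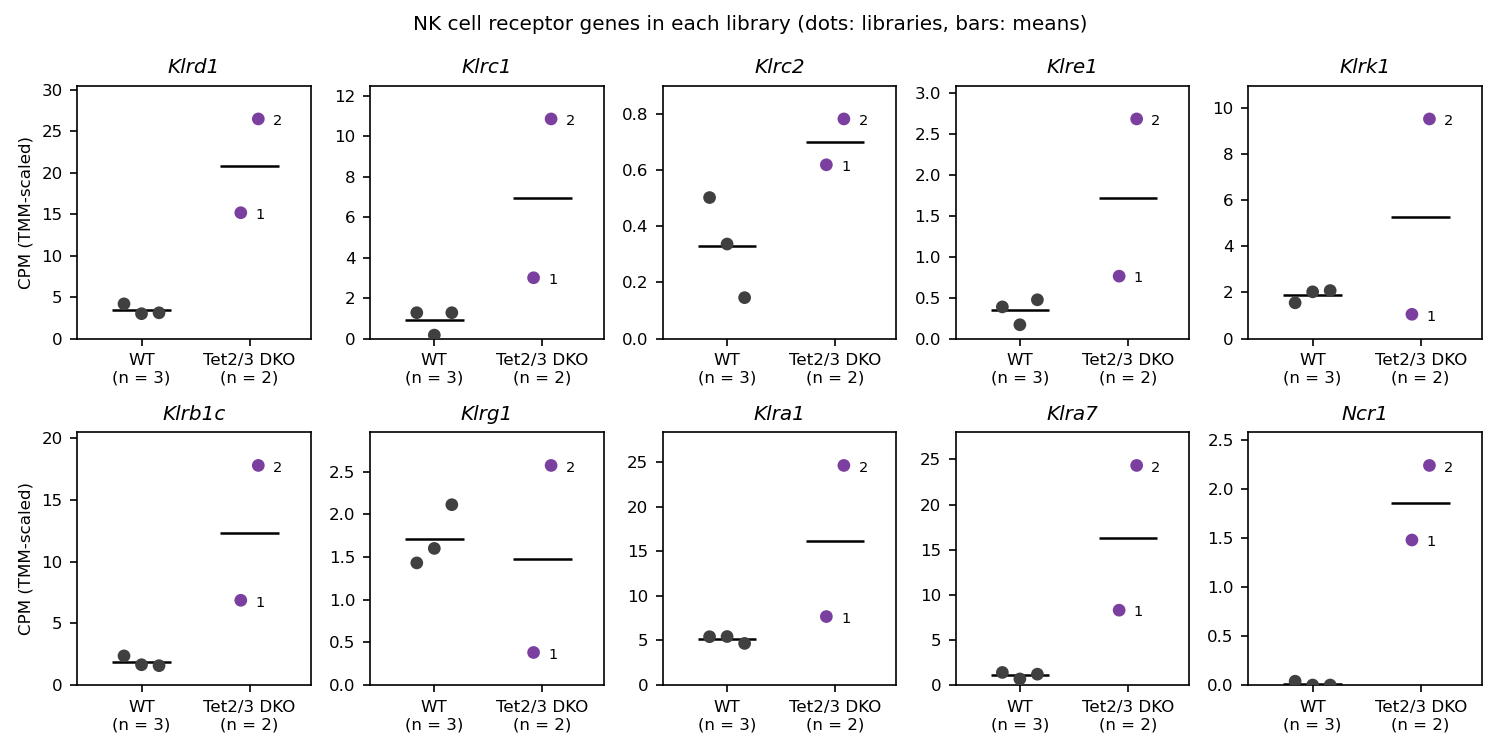
CPM of each NK cell receptor gene (y axis, linear from 0, a scale of its own in each panel) in the 3 WT libraries (grey) and the 2 *Tet2/3* DKO libraries (purple, numbered by replicate). Dots are libraries and bars are means. *Tet2/3* DKO replicate 2 was above replicate 1 in all 10 panels, and in *Klrk1* and *Klrg1* replicate 1 was below every WT library.

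The receptors of the CD94/NKG2 family pair CD94, the product of *Klrd1*, with an NKG2 chain to read the non-classical MHC molecule Qa-1. *Klrd1* (ENSMUSG00000030165, chr6:129591782-129598775 of mm10) gave 108, 71 and 85 counts in the WT libraries, against 318 and 473 in the *Tet2/3* DKO libraries. Both *Tet2/3* DKO libraries were thus above every WT library, by a wide margin against the spread of the WT libraries. Its level rose from 3.42 ± 0.656 CPM (SD, n = 3) to 20.8 ± 7.99 CPM (SD, n = 2), for a log2 fold change of 2.59 (SE 0.28, edgeR adjusted p = 0.000756). Leaving out *Tet2/3* DKO replicate 1 put the log2 fold change at 2.94, and leaving out replicate 2 put it at 2.13. The call was lost without WT replicate 2 (edgeR adjusted p = 0.0154) or WT replicate 3 (edgeR adjusted p = 0.0137). *Klrd1* was the only one of the 4 called genes that stayed past the threshold without WT replicate 1 (edgeR adjusted p = 0.00532).

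*Klrc1* encodes NKG2A, the inhibitory partner of CD94. *Klrc1* (ENSMUSG00000030167, chr6:129666015-129678973) gave 33, 4 and 35 counts in the WT libraries, against 63 and 194 in the *Tet2/3* DKO libraries. The WT libraries themselves were spread widely, with replicate 2 far below the others, and both *Tet2/3* DKO libraries were above all of them. The level was 0.907 ± 0.639 CPM in WT and 6.93 ± 5.55 CPM in *Tet2/3* DKO cells, for a log2 fold change of 2.84 (SE 0.65, edgeR adjusted p = 0.0275) that missed the threshold. Without *Tet2/3* DKO replicate 1 it was 3.53, past the threshold (edgeR adjusted p = 4.24e-06), and without replicate 2 it was 1.67 (edgeR adjusted p = 0.0417). Without WT replicate 2 it was 2.39 (edgeR adjusted p = 0.121). Only 61.4% of the 50-base windows of its transcripts occur in no other gene, so that reads shared with *Klrc2* and *Klrc3* could have been left out of its counts.

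*Klrc2* encodes NKG2C, the activating counterpart of NKG2A. With 13, 8 and 4 counts in the WT libraries, against 13 and 14 in the *Tet2/3* DKO libraries, *Klrc2* (ENSMUSG00000052736, chr6:129647496-129660689) was among the lowest of the 10 genes. The *Tet2/3* DKO libraries were above the WT libraries in CPM, 0.620 and 0.783 against 0.146 to 0.503, but by little. The log2 fold change was 1.09 (SE 0.56, edgeR adjusted p = 0.294) and missed the threshold. Summed over libraries, 27 counts in *Tet2/3* DKO against 25 in WT cells gave a ratio of 2.14 in CPM (95% counting interval 1.196 to 3.847). Such an interval on pooled counts covers counting error only and leaves out the variation between mice, which the edgeR test includes.

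*Klre1* encodes a receptor of the same branch of the family, which acts through partner chains. *Klre1* (ENSMUSG00000050241, chr6:129577905-129585827) gave 10, 4 and 13 counts in the WT libraries, against 16 and 48 in the *Tet2/3* DKO libraries. In CPM *Tet2/3* DKO replicate 2 was at 2.69 and replicate 1 at 0.763, both above the WT libraries, which were themselves spread from 0.169 to 0.474. The log2 fold change was 2.22 (SE 0.65, edgeR adjusted p = 0.0715). Without *Tet2/3* DKO replicate 1 it was 2.92, past the threshold (edgeR adjusted p = 0.000731), and 1.10 without replicate 2.

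*Klrk1* encodes NKG2D, an activating receptor for stress-induced ligands such as the RAE-1 and H60 proteins, and it works without CD94. *Klrk1* (ENSMUSG00000030149, chr6:129610323-129623864) gave 40, 48 and 57 counts in the WT libraries, against 22 and 170 in the *Tet2/3* DKO libraries. The *Tet2/3* DKO libraries lay on either side of the WT libraries, which were close to each other. In CPM the WT libraries ranged from 1.55 to 2.08, and the *Tet2/3* DKO libraries were 1.05 and 9.51. The log2 fold change of 1.41 (SE 0.69, edgeR adjusted p = 0.262) rested on *Tet2/3* DKO replicate 2. It turned to -0.86 without that library (edgeR adjusted p = 0.247) and was 2.33, past the threshold, without replicate 1 (edgeR adjusted p = 9.27e-06).

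*Klrb1c* encodes NK1.1, the NKR-P1C antigen by which NK and NKT cells of this strain are recognized. *Klrb1c* (ENSMUSG00000030325, chr6:128778485-128789215) gave 61, 39 and 43 counts in the WT libraries, against 144 and 318 in the *Tet2/3* DKO libraries. Both *Tet2/3* DKO libraries were above all WT libraries, and they differed more from each other than the WT libraries did. Its level rose from 1.86 ± 0.437 to 12.3 ± 7.73 CPM, for a log2 fold change of 2.70 (SE 0.43, edgeR adjusted p = 0.00513). Leaving out *Tet2/3* DKO replicate 1 put the log2 fold change at 3.25, and leaving out replicate 2 put it at 1.87. The call was lost when any WT library was left out, with edgeR adjusted p-values of 0.0217, 0.0497 and 0.0470 without WT replicates 1, 2 and 3. It was also lost with the replicate number as a block (edgeR adjusted p = 0.0156) and with robust moderation (edgeR adjusted p = 0.0135).

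*Klrg1* encodes an inhibitory receptor for cadherins that marks effector T cells and mature NK cells. *Klrg1* lies apart from the gene complex, nearer to the start of chromosome 6 (ENSMUSG00000030114, chr6:122270596-122282882). It gave 37, 38 and 58 counts in the WT libraries, against 8 and 46 in the *Tet2/3* DKO libraries. *Tet2/3* DKO replicate 1 was lowest of all libraries, and *Tet2/3* DKO replicate 2 was highest once scaled to CPM, 2.57 against 1.43 to 2.11 in WT. This was the only receptor gene with a negative log2 fold change, -0.30 (SE 0.58, edgeR adjusted p = 0.820). Without *Tet2/3* DKO replicate 1 it was 0.57, and without replicate 2 it was -2.18 (edgeR adjusted p = 0.0305).

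Of the Ly49 receptors, *Klra1* encodes Ly49A, an inhibitory receptor for MHC class I. *Klra1* (ENSMUSG00000079853, chr6:130363917-130386874) gave 140, 129 and 128 counts in the WT libraries, against 161 and 440 in the *Tet2/3* DKO libraries. The WT libraries were nearly equal, *Tet2/3* DKO replicate 1 was slightly above them and replicate 2 far above. The level was 5.17 ± 0.439 CPM in WT and 16.1 ± 12.0 CPM in *Tet2/3* DKO cells, for a log2 fold change of 1.62 (SE 0.42, edgeR adjusted p = 0.0447) that missed the threshold. Without *Tet2/3* DKO replicate 1 it was 2.25, past the threshold (edgeR adjusted p = 1.2e-07), and 0.56 without replicate 2. DESeq2 called it as well (adjusted p = 0.00131).

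*Klra7* encodes Ly49G, another inhibitory Ly49 receptor. *Klra7* (ENSMUSG00000067599, chr6:130218605-130233322) gave 36, 16 and 33 counts in the WT libraries, against 174 and 435 in the *Tet2/3* DKO libraries. Every *Tet2/3* DKO library was far above every WT library. Its level rose from 1.09 ± 0.372 to 16.3 ± 11.3 CPM, for a log2 fold change of 3.85 (SE 0.52, edgeR adjusted p = 0.00219). Leaving out *Tet2/3* DKO replicate 1 put the log2 fold change at 4.46, and leaving out replicate 2 put it at 2.89. The call was lost when any WT library was left out, with edgeR adjusted p-values of 0.0142, 0.0304 and 0.0260 without WT replicates 1, 2 and 3, and also with robust moderation (edgeR adjusted p = 0.0173). The Ly49 genes are close copies of each other, and 87.7% of the 50-base windows of *Klra7* and 97.0% of those of *Klra1* occur in no other gene.

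*Ncr1* encodes NKp46, an activating receptor of the immunoglobulin superfamily and the most NK-restricted of the 10. It is the only one of them outside chromosome 6 (ENSMUSG00000062524, chr7:4337724-4345164). *Ncr1* gave 1, 0 and 0 counts in the WT libraries, against 31 and 40 in the *Tet2/3* DKO libraries. It was thus close to undetected in WT and present in both *Tet2/3* DKO libraries, which hardly differed from each other. Summed over libraries, 71 counts in *Tet2/3* DKO against 1 in WT cells gave a ratio of 141 in CPM (95% counting interval 24.5 to 5638). The level in *Tet2/3* DKO cells was low, 1.86 ± 0.537 CPM (SD, n = 2). The fitted log2 fold change of 6.64 (SE 0.83, edgeR adjusted p = 0.00169) depends on the prior count that edgeR adds to a gene near 0 and is no bound on the change. The call was lost when any WT library was left out, with edgeR adjusted p-values of 0.0145, 0.0153 and 0.0122 without WT replicates 1, 2 and 3.

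**Figure D2:**
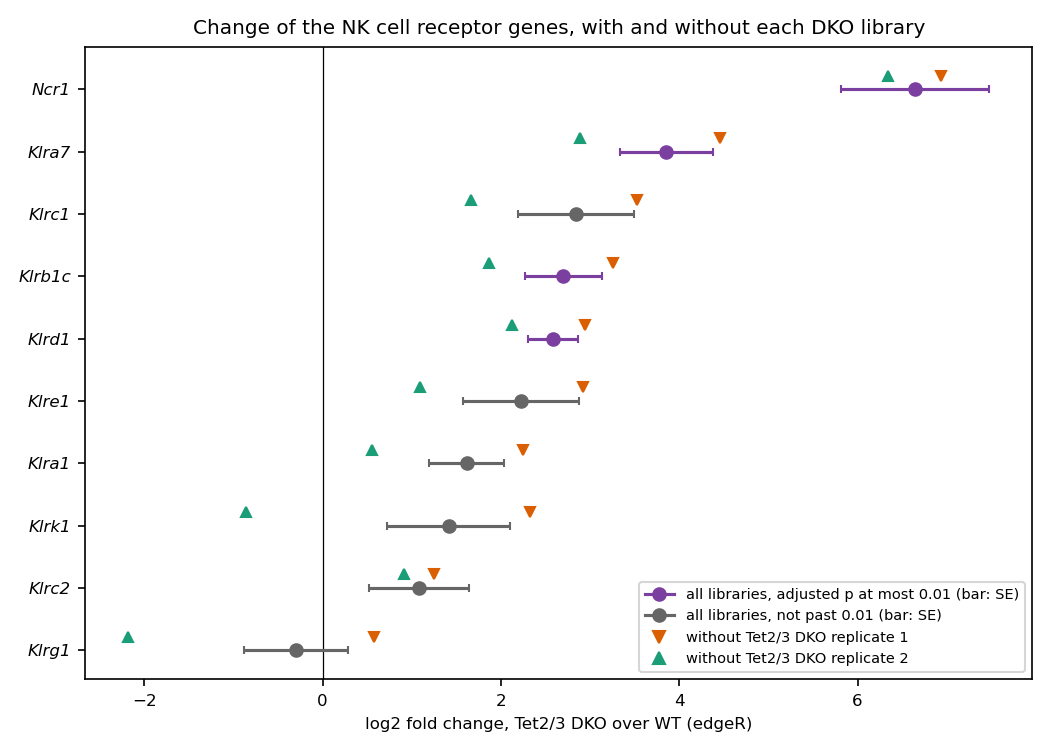
Log2 fold change of each NK cell receptor gene, *Tet2/3* DKO over WT, by edgeR (x axis). Circles with SE bars use all libraries, purple where the adjusted p is at most 0.01, and triangles leave out a *Tet2/3* DKO library. The values without replicate 1 are above those without replicate 2 for all 10 genes, and for *Klrk1* and *Klrg1* they lie on opposite sides of 0.

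The 2 *Tet2/3* DKO libraries differed from each other in the receptor genes. In CPM, *Tet2/3* DKO replicate 2 was above replicate 1 in 10 of 10, and by at least 2 times in 7 of 10, against 6.09% of all tested genes. The median ratio of replicate 2 to replicate 1 over all tested genes was 0.998. The ratio was highest for *Klrk1*, at 9.07 (95% counting interval 5.80 to 14.9). It was 6.75 (3.15 to 16.6) for *Klrg1* and 3.61 (2.71 to 4.88) for *Klrc1*, but 1.75 (1.51 to 2.02) for *Klrd1*. For *Ncr1* it was 1.51 (0.924 to 2.50) and for *Klrc2* 1.26 (0.551 to 2.92), so that these genes did not differ between the libraries beyond counting error. The intervals cover counting error only, and the pair also differs in the sex-linked RNA given above. Its part in the result was not tested.

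**Figure D3:**
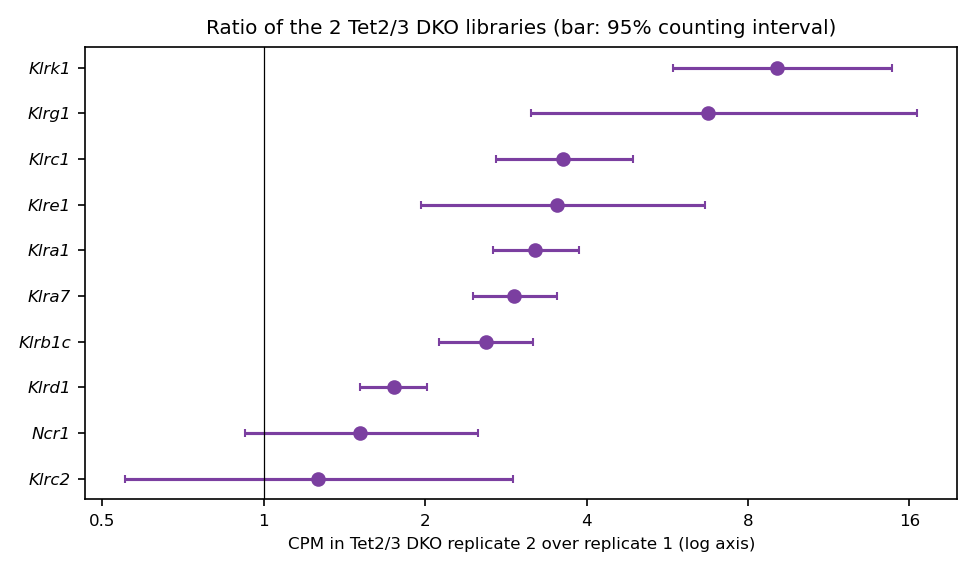
Ratio of CPM in *Tet2/3* DKO replicate 2 to *Tet2/3* DKO replicate 1 for each NK cell receptor gene (x axis, logarithmic), with 95% counting intervals as bars and a line at equality. Of the 10 intervals, 8 lie above 1, and those of *Ncr1* and *Klrc2* include it.

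Summed over the 10 receptor genes, the level was 18.5, 15.0 and 16.6 CPM in WT replicates 1 to 3 and 45.3 and 121.9 CPM in *Tet2/3* DKO replicates 1 and 2. The receptors together thus stayed a minor part of the RNA in every library. The shares of single genes in the sum are given as a description. *Klra1* made up 28.1% to 36.1% of it in WT but 16.9% and 20.2% in *Tet2/3* DKO replicates 1 and 2, whereas *Klra7* went from 4.48% to 7.52% in WT to 18.3% and 20.0%. The share of *Klrg1* was 7.72% to 12.7% in the WT libraries, against 0.842% and 2.11% in the *Tet2/3* DKO libraries. In bulk RNA, more cells that express a receptor and more receptor RNA per cell cannot be told apart.

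Levels of different genes were compared per kb of exon. In WT cells *Klra1* (2.93 ± 0.249 CPM per kb) and *Klrd1* (2.67 ± 0.512) were highest, and their SDs overlapped. *Klrg1* (1.21 ± 0.251) and *Klra7* (0.861 ± 0.294) followed, then *Klrb1c* (0.627 ± 0.148), *Klrc1* (0.457 ± 0.322) and *Klrk1* (0.262 ± 0.0406), and from *Klrg1* to *Klrk1* the SDs of neighbours overlapped. *Klre1* (0.0982 ± 0.0450) and *Klrc2* (0.0565 ± 0.0307) were lower and not separate from each other, and *Ncr1* (0.00837 ± 0.0145) was last. In *Tet2/3* DKO cells the order began with *Klrd1* (16.2 ± 6.24 CPM per kb), *Klra7* (12.9 ± 8.97) and *Klra1* (9.15 ± 6.79), whose SDs overlapped. *Ncr1* moved from the last place to 1.21 ± 0.349 CPM per kb, above *Klrg1*, *Klrk1*, *Klre1* and *Klrc2* in the means, though beyond the SDs only of *Klrc2*.

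The other *Klr* genes were examined in the same way. The annotation holds 30 genes with such a symbol, of which 21 are not among the receptors above. Of these 21, 11 stayed under 10 counts in every library, 6 were tested and 3 rose, against 2.42% of all tested genes. *Klrb1a*, which encodes the activating receptor NKR-P1A, gave 5, 8 and 8 counts in the WT libraries, against 70 and 110 in the *Tet2/3* DKO libraries (log2 fold change 4.07, SE 0.48, edgeR adjusted p = 0.00116). *Klrb1f*, which encodes NKR-P1F, a receptor for Clr proteins, had 49, 55 and 38 against 165 and 279 counts (log2 fold change 2.64, SE 0.36, edgeR adjusted p = 0.00219). The pseudogene *Klra13-ps* had 4, 0 and 3 against 29 and 61 counts (log2 fold change 4.60, SE 0.73, edgeR adjusted p = 0.00269), and 86.3% of its 50-base windows are its own. In all of them both *Tet2/3* DKO libraries were above all WT libraries, and replicate 2 above replicate 1. These calls were lost when any WT library was left out, with edgeR adjusted p-values from 0.0116 to 0.0174 for *Klrb1a*, from 0.0166 to 0.0255 for *Klrb1f* and from 0.0183 to 0.0396 for *Klra13-ps*. The call of *Klra13-ps* was also lost with the replicate number as a block (edgeR adjusted p = 0.0133).

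The tested Ly49 genes did not all have higher means in *Tet2/3* DKO cells. *Klra9* gave 65, 38 and 44 counts in the WT libraries, against 60 and 134 in the *Tet2/3* DKO libraries (log2 fold change 1.40, SE 0.43, edgeR adjusted p = 0.0860). *Klra5* had 7, 16 and 8 against 12 and 20 counts (log2 fold change 1.02, SE 0.57, edgeR adjusted p = 0.331). *Klra3*, which encodes Ly49C, had 56, 44 and 22 against 25 and 12 counts, the only negative estimate among them (log2 fold change -0.74, SE 0.53, edgeR adjusted p = 0.474). The other 4 that reached 10 counts did so in *Tet2/3* DKO cells only and were too low to be tested. *Klri2* gave 0, 2 and 0 counts in the WT libraries, against 1 and 48 in the *Tet2/3* DKO libraries. *Klra10* had 0, 3 and 6 against 6 and 22, *Klrb1* 0 in each WT library against 10 and 3, and *Klra14-ps* 1, 0 and 7 against 13 and 3. As in most receptor genes, *Klri2* and *Klra10* were highest in *Tet2/3* DKO replicate 2, whereas *Klrb1* and *Klra14-ps* were higher in replicate 1.

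**Figure D4:**
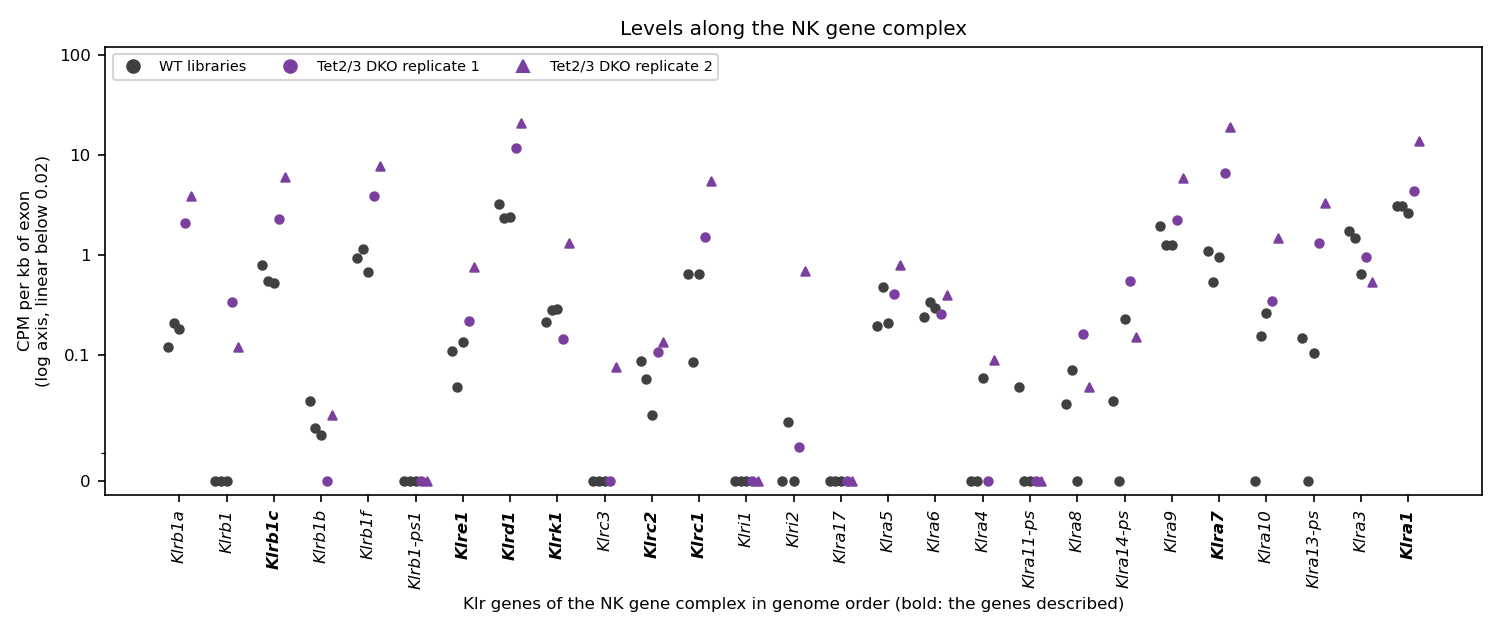
CPM per kb of exon (y axis, logarithmic above 0.02 and linear below) of every *Klr* gene from *Klrb1a* to *Klra1* in the order of the genome (x axis, not to scale), with the 8 of the 10 receptors that lie there in bold. WT libraries are grey dots, *Tet2/3* DKO replicate 1 purple dots and replicate 2 purple triangles. Genes with *Tet2/3* DKO libraries above all WT libraries lie beside others, such as *Klra5* and *Klra3*, where the libraries overlap.

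The stretch of chromosome 6 from *Klrb1a* to *Klra1* (chr6:128609227-130386874) holds 91 annotated genes, 27 of them *Klr* genes. Of the 14 *Klr* genes tested there, 6 rose and the median log2 fold change was 2.41. Of the 12 other genes tested, 2 rose and 0 fell, with a median of 0.73, and 7 had both *Tet2/3* DKO libraries above all WT libraries. Over all tested genes these shares were 2.42%, 1.50% and 19.6%, and the median was 0.01. *BC035044* rose from 20, 16 and 21 to 268 and 317 counts (log2 fold change 4.35, SE 0.29, edgeR adjusted p = 3.86e-05). *Gm15987* gave 0, 1 and 0 counts in the WT libraries, against 31 and 66 in the *Tet2/3* DKO libraries (edgeR adjusted p = 0.00298), a call that was lost when any WT library was left out (edgeR adjusted p from 0.0145 to 0.0435). Within the same stretch *Clec2i*, which encodes a ligand of NKR-P1 receptors, gave 1906, 1658 and 1963 counts in the WT libraries, against 1341 and 1509 in the *Tet2/3* DKO libraries, which in CPM overlapped (log2 fold change 0.05, SE 0.13, edgeR adjusted p = 0.880).

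Partners, ligands and related receptors were taken as 46 genes in 4 lists, of which 37 were tested, 3 rose and 1 fell, against 2.42% and 1.50% of all tested genes. The 6 adaptors and partner chains that carry the receptors' signals had 4 tested genes and a median log2 fold change of 0.68, and 0 passed. *Tyrobp*, which encodes the adaptor DAP12 of activating Ly49 and CD94 receptors, gave 8, 22 and 23 counts in the WT libraries, against 28 and 44 in the *Tet2/3* DKO libraries (log2 fold change 1.43, SE 0.49, edgeR adjusted p = 0.116). *Fcer1g*, the partner of NKp46 and NK1.1, had 47, 23 and 29 against 44 and 75 counts (log2 fold change 1.26, SE 0.42, edgeR adjusted p = 0.108). Both were above all WT libraries in CPM in the *Tet2/3* DKO libraries, but neither passed. *Hcst*, which encodes the NKG2D adaptor DAP10 and is abundant in these cells, gave 2700, 2325 and 3348 counts in the WT libraries, against 2562 and 1983 in the *Tet2/3* DKO libraries (log2 fold change 0.11, SE 0.11, edgeR adjusted p = 0.642). *Cd247*, which encodes the CD3ζ chain that also serves NKp46, was lower in both *Tet2/3* DKO libraries, with 19450, 16655 and 19059 against 11641 and 8683 counts, and had the smallest adjusted p of the list (log2 fold change -0.46, SE 0.09, edgeR adjusted p = 0.0134).

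In the 11 genes of downstream signalling 9 were tested, 0 passed and the median log2 fold change was 0.14. *Sh2d1a*, the adaptor SAP of SLAM receptors, had the smallest edgeR adjusted p among them, 0.0175, with a log2 fold change of 0.54. Both *Tet2/3* DKO libraries were above all WT libraries in 3 of the 11 genes and below them in 3, against 19.6% and 19.5% of all tested genes. In the lower ones the log2 fold changes ranged from -0.40 (*Plcg1*, a phospholipase of receptor signalling) to -0.12. *Sh2d1b1*, which encodes the NK cell adaptor EAT-2, was at 0 counts in all WT libraries, against 1 and 21 in the *Tet2/3* DKO libraries. It was thus seen almost only in the library where the receptors were highest. Of the 15 ligand genes, 10 were tested, 0 passed and the median was 0.17. *H2-T23*, which encodes Qa-1, the ligand of CD94/NKG2 receptors, had a log2 fold change of -0.10 (SE 0.10, edgeR adjusted p = 0.619). For *Cdh1*, which encodes E-cadherin, the ligand of KLRG1, the WT libraries gave 8, 17 and 7 counts, against 47 and 12 in the *Tet2/3* DKO libraries, here with replicate 1 the higher.

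All 14 other receptors that NK and T cells share were tested, with a median log2 fold change of 1.05. *Cd160*, which encodes a receptor for HVEM, rose from 244, 141 and 240 counts in WT to 1309 and 1487 in *Tet2/3* DKO cells (log2 fold change 3.17, SE 0.19, edgeR adjusted p = 2.88e-05). *Cd226*, which encodes the activating receptor DNAM-1, rose from 1485, 1229 and 1596 to 3276 and 2579 counts (log2 fold change 1.43, SE 0.10, edgeR adjusted p = 4.34e-05). *Slamf6* rose from 7211, 5863 and 6697 to 10658 and 11101 counts (log2 fold change 1.14, SE 0.11, edgeR adjusted p = 0.000330). These 3 genes had similar levels in both *Tet2/3* DKO libraries and stayed past the threshold when any library was left out. *Cd7* fell, with 2945, 2319 and 3030 counts in the WT libraries, against 1387 and 929 in the *Tet2/3* DKO libraries (log2 fold change -0.86, SE 0.13, edgeR adjusted p = 0.00345), a call lost when any WT library was left out (edgeR adjusted p from 0.0171 to 0.0285). *Tigit*, the inhibitory counterpart of *Cd226*, had 149, 178 and 174 counts in WT, 152 in *Tet2/3* DKO replicate 1 and 2174 in replicate 2, so that its log2 fold change of 3.29 (SE 0.84, edgeR adjusted p = 0.0423) rested on the latter.

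**Figure D5:**
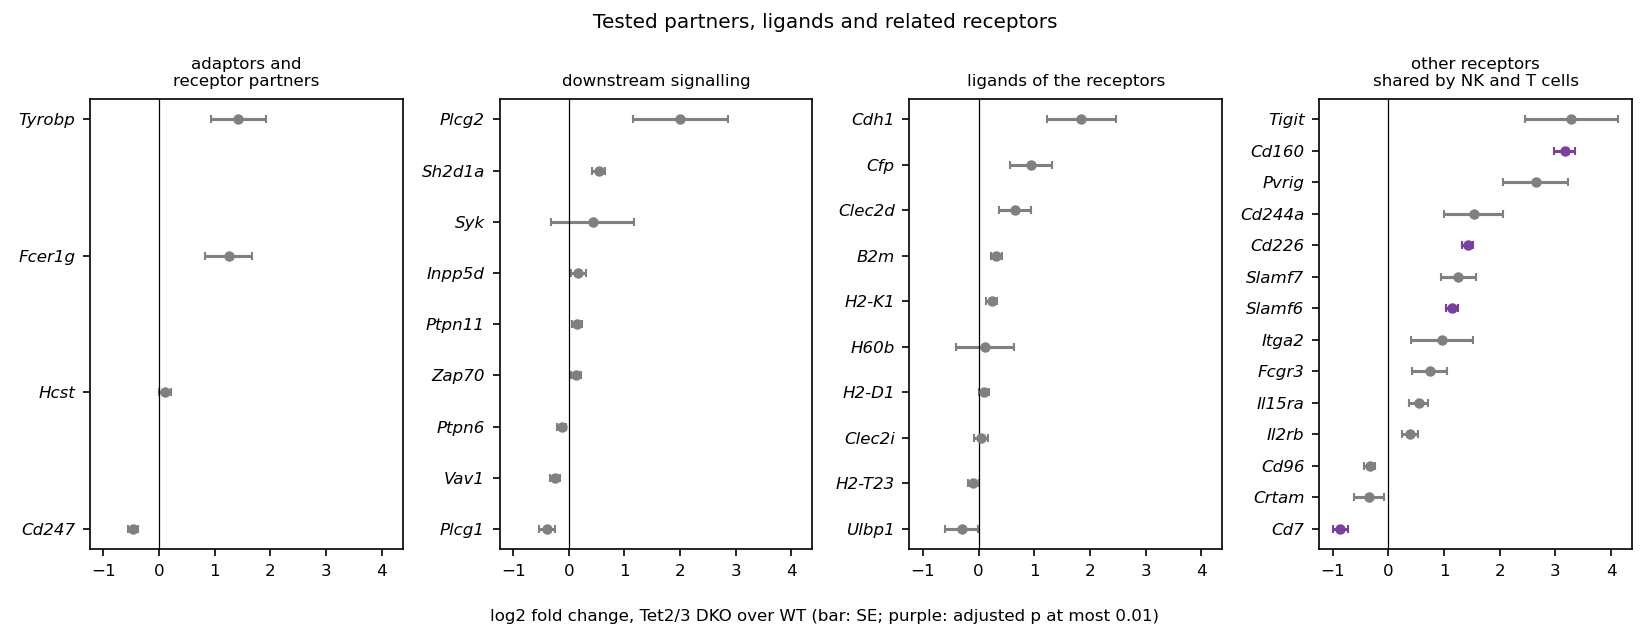
Log2 fold change, *Tet2/3* DKO over WT, by edgeR (x axis, bars are SE) of the tested genes in the 4 lists of partners, signalling genes, ligands and related receptors. Purple marks an adjusted p of at most 0.01, reached by *Cd160*, *Cd226*, *Slamf6* and *Cd7* in the last list and by no gene of the other lists.

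Markers of other cells, most of which the gate on CD4, TCRβ and CD8 would leave out, moved with some of these results. Of 12 NK cell marker genes, which besides *Ncr1* are not among the receptors above, 7 were tested, *Ncr1* was the only one to rise, and the median log2 fold change was 1.40. In 7 of the 12 both *Tet2/3* DKO libraries were above all WT libraries, against 19.6% of all tested genes. These were *Ncr1*, *Tyrobp*, *Fcer1g*, *Fcgr3*, *Cd244a*, *Klra9* and *Sh2d1b1*. *Sh2d1b1* was not tested and had 1 count in *Tet2/3* DKO replicate 1 against 0 in each WT library. The summed level of the 12 was 7.87 to 10.5 CPM in WT and 17.4 and 30.3 CPM in *Tet2/3* DKO replicates 1 and 2. The lowest of the 12 were *Klra4* and *Klra8*, which encode Ly49D and Ly49H, with 0 to 2 and 0 to 4 counts per library, and *Sh2d1b2*, with 0 counts in all libraries but *Tet2/3* DKO replicate 2, which had 2. *Zbtb16*, which encodes PLZF, the factor of NKT cells and other innate-like T cells, rose from 32, 13 and 24 counts to 251 and 253 (log2 fold change 3.85, edgeR adjusted p = 8.57e-05). Of 5 γδ T cell genes 3 rose, against 2.42% of all tested genes. The list summed to 28.5 to 30.5 CPM in WT against 234.6 and 376.0 CPM in *Tet2/3* DKO replicates 1 and 2. *Tcrg-C1*, *Tcrg-C2* and *Tcrg-C4*, the γ chain constant genes, made the difference (log2 fold changes from 4.04 to 4.40), whereas *Trdc*, the δ chain constant gene, gave 302, 279 and 457 counts in the WT libraries, against 384 and 273 in the *Tet2/3* DKO libraries. *Sox13*, a transcription factor of γδ T cells and the last of the 5, was lower in both *Tet2/3* DKO libraries, with 28, 25 and 26 against 5 and 4 counts (log2 fold change -2.12, edgeR adjusted p = 0.0361). Among 7 myeloid and dendritic cell genes 4 were tested and 0 passed, with sums of 7.51 to 13.3 CPM in the WT libraries, against 23.9 and 50.9 CPM in the *Tet2/3* DKO libraries. Both *Tet2/3* DKO libraries were above all WT libraries in 5 of the 7, against 19.6% of all tested genes. These were *Lyz2*, *Csf1r*, *Cd68*, *Adgre1* and *Fcgr1*, of which *Adgre1* and *Fcgr1* were too low to be tested. *Lyz2*, which encodes lysozyme, made up most of the sum, with 279, 246 and 160 against 390 and 759 counts (log2 fold change 1.76, edgeR adjusted p = 0.0142). *Csf1r* had 7, 2 and 1 against 15 and 19 counts (log2 fold change 2.70, edgeR adjusted p = 0.0294), and *Itgax* had 0 to 2 per library. The 6 B cell genes summed to 5.72 to 7.03 CPM in the WT libraries, against 9.11 and 9.40 CPM in the *Tet2/3* DKO libraries. Of the 6, 2 were tested and 0 passed the threshold. The pair of CD8 T cell genes summed to 68.8 to 77.1 CPM in the WT libraries, against 34.3 and 35.8 CPM, but did not move together. *Cd8b1* fell, with 1729, 1564 and 1967 against 599 and 484 counts (log2 fold change -1.29, edgeR adjusted p = 0.000168), whereas *Cd8a* had 70, 69 and 148 against 121 and 155 counts, in CPM above all WT libraries in both *Tet2/3* DKO libraries (log2 fold change 0.94, edgeR adjusted p = 0.128). In the lists of double-positive thymocytes and epithelial cells 1 of 4 and 3 of 5 genes were tested, and 0 passed. Of the red cell genes 0 of 5 were high enough to be tested, so none could pass. The epithelial sum was highest in *Tet2/3* DKO replicate 2, at 34.0 CPM against 10.6 to 13.3 CPM in the other libraries, which was nearly all *Epcam* (33.8 CPM there). The other tested epithelial genes were lower in both *Tet2/3* DKO libraries, *Krt8* with 20, 46 and 27 against 4 and 4 counts (log2 fold change -2.52, edgeR adjusted p = 0.0642) and *Psmb11* with 39, 22 and 18 against 1 and 0 counts (edgeR adjusted p = 0.0189). The part of these cells in the receptor levels was not tested.

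Reads of the invariant α chain of iNKT cells, TRAV11 joined to TRAJ18, were counted in the deposited T cell receptor clonotypes. They made up 7 of 10999 α chain reads (0.0636%, 95% Wilson interval 0.0308% to 0.131%), 5 of 8944 (0.0559%, 0.0239% to 0.131%) and 4 of 11215 (0.0357%, 0.0139% to 0.0917%) in WT replicates 1 to 3. In *Tet2/3* DKO replicates 1 and 2 they were 8 of 9758 (0.0820%, 0.0415% to 0.162%) and 1 of 6401 (0.0156%, 0.00276% to 0.0884%). The intervals of all 5 libraries overlapped, and the single read of *Tet2/3* DKO replicate 2 is below the 0.0469% that a count of 0 would allow in that library, so that a difference was not detectable at this depth.

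Outside the lists, the 5 tested genes whose pattern over the 5 libraries was most like the summed CPM of the receptors were *Kctd11*, *Fkbp10*, *B930095G15Rik*, *Hmox1* and *Cd38*. Likeness was measured as the root mean square difference in log2 CPM, each taken relative to its WT mean, and these differences ranged from 0.166 to 0.209. *Cd38*, which encodes an ectoenzyme of lymphocytes, had the highest level, with 3.43 to 3.83 CPM in WT and 9.01 and 35.9 CPM in *Tet2/3* DKO replicates 1 and 2. None of the 5 passed the threshold, with edgeR adjusted p-values from 0.0128 to 0.0464 and log2 fold changes from 2.19 to 2.66.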

How the data were processed

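SMART-seq RNA of sorted CD4 SP cells was measured in separate mice, 3 WT and 2 *Tet2/3* DKO. The authors trimmed reads with fastp 0.21.0, aligned them to mm10 with STAR 2.7.5a, using the GRCm38.100 gene models, and deposited raw counts of reads per gene and library, without normalization or pooling. STAR leaves out reads that map to several places or to overlapping genes. Between 20.8% and 23.7% of reads fell on no single gene and stayed out of library sizes. Reads fell on both strands alike (49.8% to 50.2%), so unstranded counts were used. The authors also deposited counts of reads per T cell receptor clonotype, by a tool not given in the sources used here.

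Groups came from the sample labels, and symbols and coordinates from GENCODE M21, which held 55227 of the 55487 identifiers. Counts were tested with edgeR 4.0.16 in R 4.3.3 (quasi-likelihood, TMM, filterByExpr by genotype, Benjamini-Hochberg adjustment over 13525 genes, threshold 0.01 as in the study). SE is the size of the log2 fold change over the square root of F. DESeq2 1.42.0, other scalings, filters and thresholds, a replicate block and leaving out libraries were alternatives. The receptors and all lists were chosen with earlier results of these data known. Genes named are the 10 receptors, other *Klr* genes with 10 counts in a library, list genes past the threshold with examples of the rest, *Tet2*, *Tet3* and the 5 genes nearest in pattern (pseudocount 0.1 CPM). *BC035044*, *Gm15987*, *Klrc3* and *Xist* were named after their values were seen. Same-numbered libraries deviated together with r = 0.0151 and 0.00446 across genes, so the numbers do not pair the mice. In simulated counts of 13525 genes the test recovered 67 of 100 genes changed 2-fold and 93 of 100 changed 4-fold, with 6 false calls. The changed genes were drawn only from genes with higher mean counts than *Klrc2*, *Klre1* and *Ncr1*, so these shares do not cover such low genes. Each gene was given the same dispersion in both groups. Intervals are at 95% and cover counting error only, since reads carry no molecular identifiers.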

Additional observations from a re-analysis of the deposited data

How the results depend on the processing

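The number of NK cell receptor genes past the threshold, 4, lay between 0 and 8 when a library was left out. It was 1 without WT replicate 1 and 0 without WT replicate 2 or 3. Leaving out *Tet2/3* DKO replicate 1 gave 8, and replicate 2 gave 4. The count was 2 with edgeR's robust moderation (*Klrd1* and *Ncr1*), 3 with the replicate number as a block (replicate block, all but *Klrb1c*), 5 with DESeq2 (with *Klra1* added), 6 at a threshold of 0.05, and 8 without the libraries that go against their sex labels, an alternative chosen after seeing the data. Legacy moderation, RLE or upper quartile scaling, no filter and the summed strand columns kept the same 4 genes. Of 140 values of single receptor genes, 3 reversed: *Klrk1*, which ranged from -0.86 (without *Tet2/3* DKO replicate 2) to 2.33 when a library was left out, and *Klrg1*, which ranged from -2.18 to 0.57 (without *Tet2/3* DKO replicate 1) and was 0.45 without the libraries against their sex labels. Another 114 kept direction and side of the threshold, 14 lost a call and 9 gained one. Over all tested genes the count of 530 lay between 110 and 1311 when a library was left out, and was 358 with the replicate block, 1027 with DESeq2, 1173 at 0.05 and 1345 without the libraries against their sex labels. For the 46 related genes the count of 4 became 7 with DESeq2, 9 at 0.05 and 15 without the libraries against their sex labels, and lay between 3 and 15 when a library was left out. With fewer WT libraries fewer samples enter the fit. The cause of the other shifts was not tested. Depth limits the precision of *Klrc2*, with 4 to 14 counts per library, and of *Ncr1* in WT, with 0 or 1.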
